A study of Mus musculus with 12 samples.

Results

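The imprinted growth genes examined here were *Grb10*, *H19*, *Dlk1*, *Meg3*, *Peg3*, *Mest*, *Cdkn1c*, *Plagl1*, *Ndn* and *Snrpn*, 10 genes chosen by name from a table of 45281 probes that names 19057 genes. *Grb10* was put on the list because its signal was higher in medulloblastomas (MBs) lacking Norrin, so the values that chose it are given below as a description. The annotation used named a probe for 8 of the 10 genes, 20 probes in all, and *H19* and *Snrpn* were not analysed here. Illumina MouseWG-6 v2.0 arrays, each carrying a single sample, compared 3 groups of 4: *NdpKO;Ptch+/-* MBs, *Ptch+/-* MBs, and wild-type (WT) granule neuron progenitors (GNPs) of mice at postnatal day 6.

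Both tumor groups carried 1 mutant allele of *Ptch*, the receptor that restrains Hedgehog signalling, and were taken from the cerebella of symptomatic mice whose ages the labels do not give. In the *NdpKO;Ptch+/-* group the X-linked gene *Ndp*, which encodes the secreted Frizzled4 ligand Norrin, was also disrupted in every cell by a lacZ cassette, and these mice were males. GNPs were enriched on a Percoll gradient and by pre-plating, whereas tumors were not described as sorted. By the labels the strain background was mixed in *NdpKO;Ptch+/-* mice and C57Bl/6 in both remaining groups, although the design text draws controls from 1 breeding cohort. If the labels hold, strain and genotype cannot be told apart.

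Imprinted genes are read mainly from the copy inherited from 1 parent, and most lie in clusters under an imprinting control region whose DNA methylation differs between the maternal and paternal copies. Many of them set fetal and postnatal growth: *Grb10* and *Cdkn1c*, usually read from the maternal copy, restrain it, while the paternally read *Igf2* promotes it. *Grb10* encodes an adaptor that binds the insulin and IGF1 receptors and damps their signal, and in mouse neurons it is read from the paternal copy. The arrays measured the sum of both copies, so the parental origin of a transcript was not measured.

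The promoters of 4 genes that the results turn on are shown as the 250 bases before the annotated RefSeq start in GRCm38.p6, 5′ to 3′ on the gene's own strand. For *Grb10* and *Mest*, which have several annotated starts, 1 window is printed. Capitals mark TGCCGC, the hexamer read by the imprint-keeping zinc finger protein ZFP57, or GCATGCGC, the core of the NRF1 motif, on either strand.
Grb10 (chr11:12037421-12037670, minus strand): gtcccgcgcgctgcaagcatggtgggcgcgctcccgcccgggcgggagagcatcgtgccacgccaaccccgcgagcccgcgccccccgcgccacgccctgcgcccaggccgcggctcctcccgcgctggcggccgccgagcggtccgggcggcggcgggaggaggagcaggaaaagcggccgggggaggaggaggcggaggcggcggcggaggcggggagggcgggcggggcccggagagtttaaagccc
Ndn (chr7:62348027-62348276, plus strand): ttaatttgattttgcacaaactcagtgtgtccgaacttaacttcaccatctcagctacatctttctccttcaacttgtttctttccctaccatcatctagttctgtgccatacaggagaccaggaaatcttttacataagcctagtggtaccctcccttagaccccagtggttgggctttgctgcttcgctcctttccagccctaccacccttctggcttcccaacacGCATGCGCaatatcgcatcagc
Mest (chr6:30737800-30738049, plus strand): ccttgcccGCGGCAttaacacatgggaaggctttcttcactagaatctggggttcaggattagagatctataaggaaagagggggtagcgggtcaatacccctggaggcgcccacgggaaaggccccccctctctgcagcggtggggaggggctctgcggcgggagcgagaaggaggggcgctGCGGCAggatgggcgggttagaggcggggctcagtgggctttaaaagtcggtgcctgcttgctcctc
Peg3 (chr7:6730420-6730669, minus strand): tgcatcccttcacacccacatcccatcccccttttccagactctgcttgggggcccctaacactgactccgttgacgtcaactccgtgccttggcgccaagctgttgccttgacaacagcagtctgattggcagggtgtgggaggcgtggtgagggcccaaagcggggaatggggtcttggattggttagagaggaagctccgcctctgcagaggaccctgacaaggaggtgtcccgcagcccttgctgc

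These windows differ in base composition, from 81.2% G and C with 40 CpG sites for *Grb10* to 47.2% with 5 CpG sites for *Ndn*. The *Grb10* window at its other annotated start, not printed, had 54.0% and 8 CpG sites. The medians over 32807 promoter windows of the same length were 52.4% and 6 CpG sites. The printed *Mest* window held TGCCGC 2 times, and 8.68% of all windows held it on either strand. Of the unprinted *Mest* windows, that at chr6:30733256-30733505 held it 0 times and that at chr6:30737803-30738052 held it 2 times. The *Ndn* window held GCATGCGC 1 time, as did 2.25% of all windows, and the printed *Grb10* and *Peg3* windows held neither. DNA methylation and factor binding were not measured, and a match of letters is only a description.

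The deposited values were normalized log2 signals running from 4.09 to 16.04, and a probe under 4.5 was taken as not above background. Every array had 31.8% to 32.5% of its probes at or above 4.5, and precision is limited by the number of arrays. The *Ndp* probe lay between 4.12 and 4.21 on all 12 arrays, so it could not check the genotype. *Ptch+/-* MB replicate 1 stood apart for the Y-linked gene *Eif2s3y*, at 4.21 against 9.82 to 10.52 on the other 11 arrays. The summed linear signal of 12 GNP and Shh-MB markers was 44402 to 54936 in *NdpKO;Ptch+/-* MBs, 66647 to 72524 in *Ptch+/-* MBs and 42843 to 44472 in GNPs, with *Zic1* at 13.60 to 14.32 (log2) on every array and *Atoh1*, *Gli1* and *Mycn* under the limit on all. The *Ptch+/-* MBs were thus apart from the other groups, and of these markers *Ccnd2* passed between the tumor groups, lower in *NdpKO;Ptch+/-* MBs.

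Markers of other cells also differed between the groups. The summed linear signal of 5 oligodendrocyte genes was 7318 to 15731 in GNPs, 536 to 1335 in *NdpKO;Ptch+/-* MBs and 358 to 555 in *Ptch+/-* MBs, and all 5 were lower in both tumor groups than in GNPs (limma, adjusted p under 0.05). The sum over 10 endothelial genes was 3937 to 5575 in GNPs, 2457 to 3889 in *NdpKO;Ptch+/-* MBs and 2007 to 2967 in *Ptch+/-* MBs, with *Kdr* and *Tie1* at background. The sum over 8 mural cell genes was 1583 to 3195 in *NdpKO;Ptch+/-* MBs, 695 to 1681 in *Ptch+/-* MBs and 1475 to 1890 in GNPs, with *Pdgfrb* and *Tagln* at background. Between the tumor groups 1 endothelial gene (*Emcn*) and 1 mural gene (*Vtn*) passed, both higher in *NdpKO;Ptch+/-* MBs. The sum over 5 skeletal muscle genes was 1182 to 1560 in *NdpKO;Ptch+/-* MBs, 91 to 300 in *Ptch+/-* MBs and 96 to 108 in GNPs, with *Myog* and *Des* at background and *Cdh15* passing between the tumor groups. In 6 microglia and macrophage genes the sum was 166 to 274 in GNPs and 1140 to 2678 in the tumors, with *Itgam* at background. The sum over 11 fibroblast and meningeal genes was 4717 to 7345 in *NdpKO;Ptch+/-* MBs, 7458 to 10203 in *Ptch+/-* MBs and 5638 to 6544 in GNPs, with *Aldh1a2* at background and none passing between the tumor groups. The sum over 7 mature neuron genes was 15882 to 20595 in *NdpKO;Ptch+/-* MBs, 12039 to 14968 in *Ptch+/-* MBs and 17061 to 18816 in GNPs, so the tumor groups did not overlap, with the *Ptch+/-* MBs lowest; *Snap25*, *Gabra6*, *Camk2a* and *Calb1* were at background and none passed between the tumor groups. The sum over 6 choroid plexus genes ran from 395 to 4050 in *NdpKO;Ptch+/-* MBs, 222 to 29719 in *Ptch+/-* MBs and 564 to 3904 in GNPs, with *Folr1* at background and none passing between the tumor groups. The 7 astrocyte genes summed to 15925 to 23185 in *NdpKO;Ptch+/-* MBs, 16642 to 35420 in *Ptch+/-* MBs and 15198 to 17007 in GNPs, again with none passing between the tumor groups. The part of these cells in the results below was not tested.

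**Figure D1:**
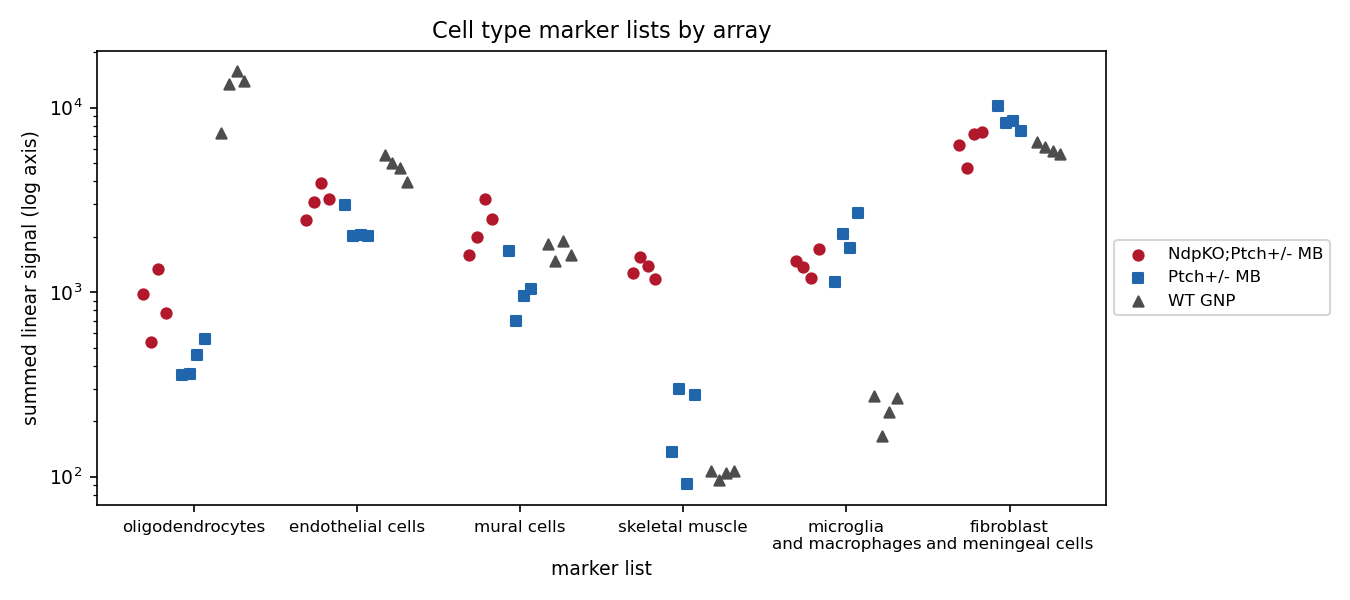
Summed linear signal of 6 cell type marker lists (log axis), 1 point per array, for 4 NdpKO;Ptch+/- MBs (red circles), 4 Ptch+/- MBs (blue squares) and 4 WT GNP samples (grey triangles). Oligodendrocyte sums in GNPs (7318 to 15731) lie above every tumor, and skeletal muscle sums in NdpKO;Ptch+/- MBs (1182 to 1560) above every other array.

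*Grb10* was high in GNPs, low in *Ptch+/-* MBs and between these in *NdpKO;Ptch+/-* MBs. Its log2 signal in replicates 1 to 4 was 9.68, 9.07, 8.60 and 7.29 in *NdpKO;Ptch+/-* MBs. It was 5.95, 4.72, 4.28 and 4.88 in *Ptch+/-* MBs. In GNPs it was 10.92, 11.02, 10.05 and 9.52. The tumor groups did not overlap, and 1 of the 4 *Ptch+/-* MBs was under the background limit, whereas the brightest *NdpKO;Ptch+/-* MB exceeded the dimmest GNP sample. The group means were 8.66 ± 1.01, 4.96 ± 0.71 and 10.38 ± 0.72 (SD, n = 4 each). The means of the tumor groups differed by 3.70 on the log2 scale, a 13-fold difference, which chose the gene and was given no test. The mean in *NdpKO;Ptch+/-* MBs was 1.72 (SE 0.57) below that of GNPs on the same scale, with no test because the arrays of that tumor group took part in the choice.

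*Ptch+/-* MBs, whose low values also took part in the choice, lay 42.8-fold below GNPs in the mean (log2 difference -5.42, SE 0.57), and this was given no test either. Only 1 of the 3 *Grb10* probes carried these values. The other two stayed under the limit on all 12 arrays, at 4.10 to 4.11 and at 4.15 to 4.5, so no second probe measured the gene.

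**Figure D2:**
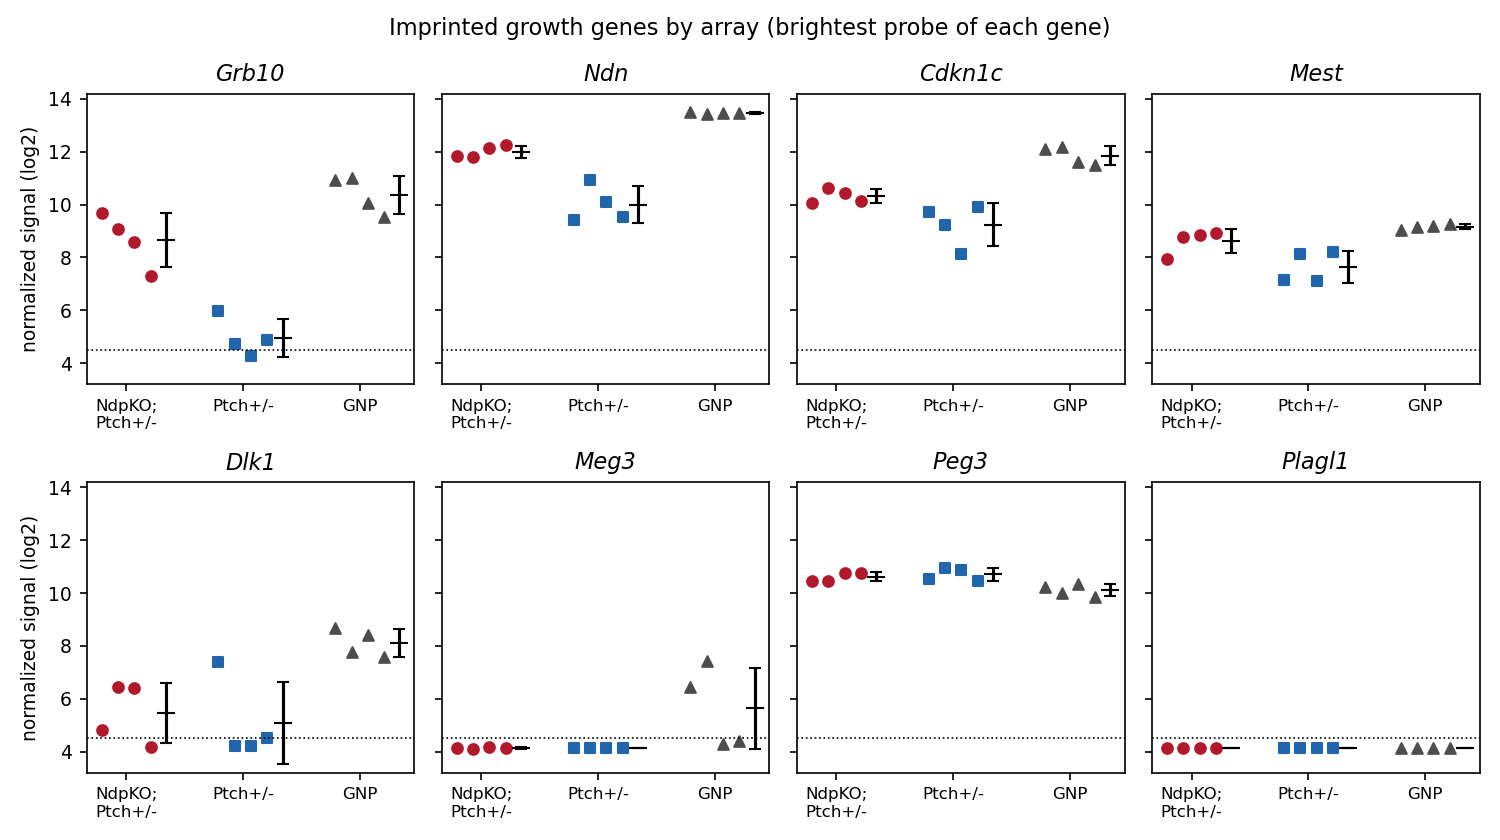
Normalized log2 signal of the brightest probe of 8 imprinted genes on each array: 4 NdpKO;Ptch+/- MBs (red circles), 4 Ptch+/- MBs (blue squares) and 4 WT GNP samples (grey triangles), with the mean and SD in black and the background limit of 4.5 dotted. Grb10, Ndn, Cdkn1c, Mest and Dlk1 are ordered GNP, NdpKO;Ptch+/- MB, Ptch+/- MB by their means, though the tumor groups overlap for Mest and Dlk1. Peg3 lies between 9.84 and 10.96 on every array, and Plagl1 is at background throughout.

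*Ndn* encodes necdin, a paternally read MAGE family protein known for restraining growth in postmitotic neurons, and it was the 1 member that passed between the tumor groups, where *Grb10* was not tested. Its log2 signal was 11.83, 11.78, 12.13 and 12.23 in *NdpKO;Ptch+/-* MBs. In *Ptch+/-* MBs it was 9.41, 10.93, 10.11 and 9.54, and in GNPs 13.51, 13.41, 13.48 and 13.46. No 2 groups overlapped: every GNP sample was above every *NdpKO;Ptch+/-* MB, and each of these above every *Ptch+/-* MB. The SD within a group was 0.22, 0.69 and 0.04 (n = 4 each).

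*Ndn* was 3.98-fold higher in *NdpKO;Ptch+/-* than in *Ptch+/-* MBs (log2 fold change 1.99, SE 0.29, limma adjusted p = 0.0131). It was 2.77-fold lower in *NdpKO;Ptch+/-* MBs than in GNPs (-1.47, SE 0.29, adjusted p = 0.00861). It was 11.0-fold lower in *Ptch+/-* MBs than in GNPs (-3.46, SE 0.29, adjusted p = 4.03e-05). The difference between the tumor groups passed in 18 of 20 alternative fits, with an adjusted p of 8.03e-04 to 0.118. It was lost when the spread was estimated from the 8 tumor arrays alone (adjusted p = 0.118, where 64 probes passed in place of 624) and with the replicate number as a block (adjusted p = 0.0573). Without *Ptch+/-* MB replicate 1 the log2 fold change was 1.80 (adjusted p = 0.0239).

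*Cdkn1c* encodes the cyclin-dependent kinase inhibitor p57, which holds cells out of the cycle, and it was lower in both tumor groups than in GNPs. Its log2 signal was 10.07, 10.64, 10.42 and 10.12 in *NdpKO;Ptch+/-* MBs. In *Ptch+/-* MBs it was 9.70, 9.24, 8.12 and 9.91, and in GNPs 12.12, 12.18, 11.62 and 11.48. All tumors lay below all GNP samples, and the tumor groups did not overlap with each other. Against GNPs, *Cdkn1c* fell by 2.61 on the log2 scale (SE 0.36) in *Ptch+/-* MBs, 6.10-fold (limma, adjusted p = 9.64e-04), and by 1.54 (SE 0.36) in *NdpKO;Ptch+/-* MBs, 2.90-fold (adjusted p = 0.0208). The second call was lost without *NdpKO;Ptch+/-* MB replicate 1 or 4 or GNP replicate 1 or 2 (adjusted p at most 0.0617). Between the tumor groups the log2 fold change of 1.07 (SE 0.36) did not pass (adjusted p = 0.224).

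*Mest*, a paternally read gene for a protein of the alpha/beta hydrolase fold, was measured above background by 3 probes. On its brightest probe the log2 signal was 7.95, 8.77, 8.83 and 8.91 in *NdpKO;Ptch+/-* MBs and 7.15, 8.13, 7.11 and 8.19 in *Ptch+/-* MBs, against 9.03, 9.14, 9.20 and 9.28 in GNPs. GNPs were above every tumor, and the tumor groups overlapped. *Mest* was 2.86-fold lower in *Ptch+/-* MBs than in GNPs (log2 fold change -1.52, SE 0.30, limma adjusted p = 0.00660). Both other probes were lower there too, at -2.38 (adjusted p = 0.0109) and, for the dimmest, at background in all 4 *Ptch+/-* MBs, at least 1.72-fold (adjusted p = 0.0233). Neither other comparison passed on the brightest probe: the log2 fold change was 0.97 between the tumor groups (adjusted p = 0.177) and -0.54 for *NdpKO;Ptch+/-* MBs against GNPs (adjusted p = 0.300).

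*Peg3*, which encodes a large zinc finger protein read from the paternal copy, was the 1 member with a call higher in tumors than in GNPs. On its brightest probe the log2 signal was 10.46, 10.47, 10.77 and 10.77 in *NdpKO;Ptch+/-* MBs and 10.54, 10.96, 10.86 and 10.46 in *Ptch+/-* MBs, against 10.24, 9.99, 10.34 and 9.84 in GNPs. Every tumor was above every GNP sample, and the tumor groups overlapped. *Ptch+/-* MBs were 1.52-fold above GNPs (log2 fold change 0.61, SE 0.15, limma adjusted p = 0.0200). A second probe gave 1.28 (SE 0.39, adjusted p = 0.0486). The call on the brightest probe was lost without *Ptch+/-* MB replicate 2 or 3 or GNP replicate 2 or 4 (adjusted p at most 0.0564). For *NdpKO;Ptch+/-* MBs against GNPs the log2 fold change of 0.51 (SE 0.15) did not pass (adjusted p = 0.0514), though it did in 8 of 20 alternative fits (adjusted p 0.0189 to 0.126), among them those without *Ptch+/-* MB replicate 2 or 4 or GNP replicate 3. The tumor groups differed by -0.09 (SE 0.15, adjusted p = 0.883).

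*Dlk1*, a paternally read transmembrane protein with EGF repeats that marks immature cells, varied most among tumors of 1 group. Its log2 signal was 4.82, 6.43, 6.39 and 4.16 in *NdpKO;Ptch+/-* MBs and 7.40, 4.23, 4.21 and 4.51 in *Ptch+/-* MBs, against 8.69, 7.75, 8.40 and 7.57 in GNPs. All 4 GNP samples were above all 8 tumors, of which 3 lay under the limit. The highest tumor was *Ptch+/-* MB replicate 1, the array with the highest choroid plexus sum (29719). *Ptch+/-* MB replicate 4, with a sum of 21205, had *Dlk1* at 4.51. *NdpKO;Ptch+/-* MB replicates 2 and 3, with sums of 1029 and 395, had it at 6.43 and 6.39. In *Ptch+/-* MBs *Dlk1* was lower than in GNPs (log2 fold change -3.02, SE 0.79, limma adjusted p = 0.0266). Without *Ptch+/-* MB replicate 1 the log2 fold change was -3.79 (adjusted p = 0.00282). The call was lost without *Ptch+/-* MB replicate 2, 3 or 4 or GNP replicate 1, 2 or 3 (adjusted p at most 0.0716). A second *Dlk1* probe, above the limit in 1 GNP sample alone, did not pass in *Ptch+/-* MBs (-0.27, adjusted p = 0.110) or *NdpKO;Ptch+/-* MBs (-0.26, adjusted p = 0.148) against GNPs. For *NdpKO;Ptch+/-* MBs against GNPs the log2 fold change of -2.66 (SE 0.79) did not pass (adjusted p = 0.0570) but did without *Ptch+/-* MB replicate 1 (adjusted p = 0.0126). The tumor groups differed by 0.36 (SE 0.79, adjusted p = 0.922), by 1.13 without *Ptch+/-* MB replicate 1 (adjusted p = 0.491), by 0.04 without *NdpKO;Ptch+/-* MB replicate 2 (adjusted p = 0.999), and within 0.04 to 1.13 without any other array.

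*Meg3*, the maternally read long noncoding RNA of the *Dlk1* cluster, was seen only in GNPs. Its log2 signal there was 6.43, 7.42, 4.28 and 4.41, above background in 2 of 4 samples, while all 8 tumors lay between 4.11 and 4.17. The GNP mean was at least 2.20-fold above the limit that both tumor groups stayed under. Neither comparison passed (limma, adjusted p = 0.160 for *NdpKO;Ptch+/-* MBs and 0.135 for *Ptch+/-* MBs against GNPs). A second *Meg3* probe, above the limit in 1 GNP sample alone, did not pass either (adjusted p = 0.128 and 0.101). *Plagl1*, which encodes a zinc finger transcription factor that binds other imprinted genes, was under the limit on all 12 arrays with each of its 3 probes, and no fold was given.

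**Figure D3:**
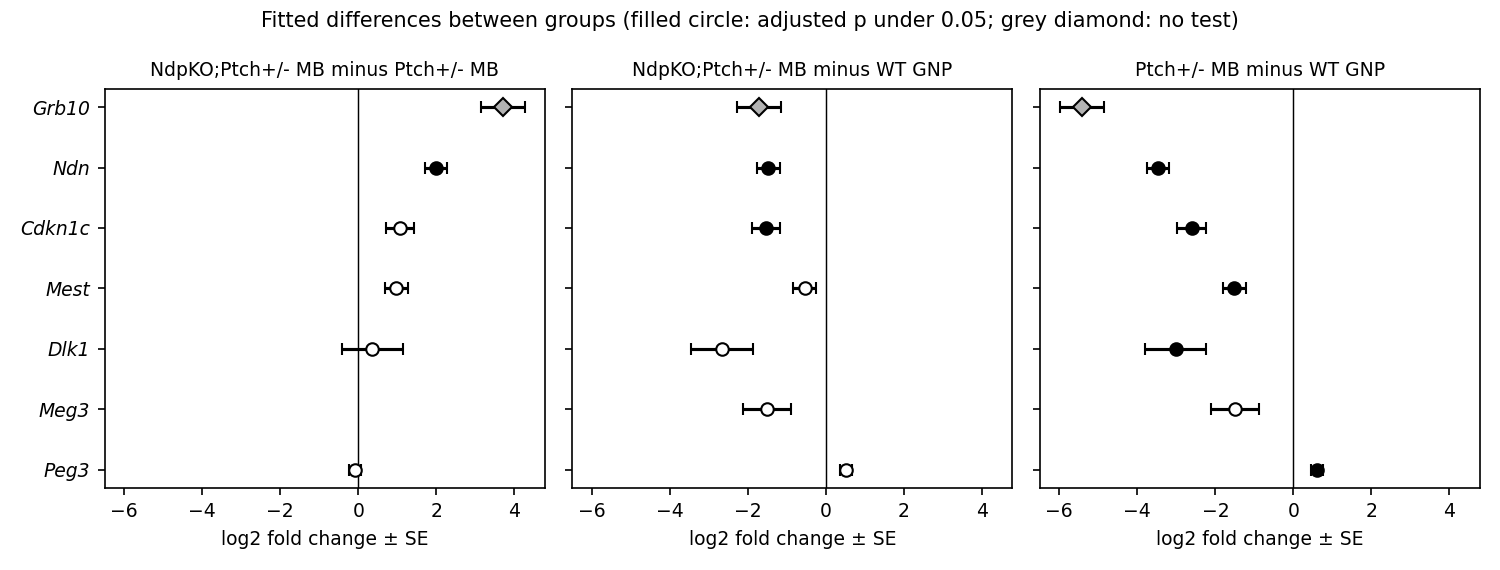
Log2 fold change with its SE (limma, 12 arrays) of the brightest probe of 7 imprinted genes in 3 comparisons; filled circles passed at an adjusted p under 0.05, open circles did not, and grey diamonds mark Grb10, which was chosen on these tumors and not tested. In Ptch+/- MBs against GNPs 4 tested genes were lower and Peg3 was higher; between the tumor groups Ndn passed, at 1.99, and Meg3, at background in both, is not drawn.

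Of the 6 members above background without *Grb10*, 1 was higher and 0 were lower in *NdpKO;Ptch+/-* than in *Ptch+/-* MBs, the higher one being *Ndn*. Over all 9648 genes above background, 1.54% were higher and 2.42% lower in that comparison. Against GNPs, 0 of 6 were higher and 2 of 6 lower (*Cdkn1c* and *Ndn*) in *NdpKO;Ptch+/-* MBs, where 14.4% of all genes were higher and 13.1% lower. Relative to GNPs, 1 of 6 was higher (*Peg3*) and 4 of 6 were lower (*Dlk1*, *Mest*, *Cdkn1c* and *Ndn*) in *Ptch+/-* MBs, where 18.6% of all genes were higher and 18.0% lower. With genes at background set to their bound, the median log2 fold change was 0.97 over 5 members between the tumor groups. Against GNPs it was -1.30 over 6 members for *NdpKO;Ptch+/-* MBs and -2.06 over 6 for *Ptch+/-* MBs. Over all genes these medians were 0.01, 0.01 and 0.00. *Meg3* was 1 of the 6 only through its signal in GNPs, so its direction against them was fixed by the filter. The 3 comparisons share their groups, so these counts are not separate observations. In dissected tumors and enriched cells, fewer cells of a type and less RNA per cell cannot be told apart, and tumor, age and cell enrichment differ together between MBs and GNPs.

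Genes of 1 imprinted cluster did not all pass together. In the cluster of *Ndn* on chromosome 7, *Snurf*, which shares a bicistronic transcript with *Snrpn*, was bright on every array (13.10 to 13.53) and did not pass on its brightest probe. Both other *Snurf* probes above background passed as lower in *Ptch+/-* MBs than in GNPs. The brighter was lower by small amounts, with a log2 fold change of -0.42 in *NdpKO;Ptch+/-* MBs (limma, adjusted p = 0.0315) and -0.51 in *Ptch+/-* MBs (adjusted p = 0.0101). The dimmer was lower in *Ptch+/-* MBs (-0.70, adjusted p = 0.0382) and did not pass in *NdpKO;Ptch+/-* MBs (-0.52, adjusted p = 0.132). None of the *Snurf* probes passed between the tumor groups. *Mkrn3*, a paternally read gene of the same cluster for a ubiquitin ligase, had means of 8.92 ± 0.11 in *NdpKO;Ptch+/-* MBs and 8.83 ± 0.67 in *Ptch+/-* MBs, against 9.35 ± 0.09 in GNPs (SD, n = 4 each) and passed in no comparison. *Usp29*, beside *Peg3*, and *Copg2*, beside *Mest*, also passed in none.

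*Cdkn1c* lies in a cluster with *Kcnq1ot1*, the paternally read noncoding RNA that silences genes of that cluster in cis. These genes moved in opposite directions between tumors and GNPs, and a link between them was not tested. *Tssc4*, of the same cluster, passed in no comparison. *Cd81*, also of that cluster, was higher in *Ptch+/-* MBs than in GNPs by 0.40 on the log2 scale (limma, adjusted p = 0.0135). The *Cd81* call was lost with the replicate block (adjusted p = 0.0518). *Kcnq1ot1* had a log2 signal of 7.93 to 8.70 in *NdpKO;Ptch+/-* MBs and 8.38 to 9.29 in *Ptch+/-* MBs. In GNPs it was 4.27 to 5.04, with 1 of 4 samples above background. The fitted log2 fold change against GNPs was 3.79 (SE 0.25, limma adjusted p = 1.16e-05) in *NdpKO;Ptch+/-* MBs and 4.35 (SE 0.25, adjusted p = 3.92e-06) in *Ptch+/-* MBs. Only 1 *Kcnq1ot1* probe was above background, so no second probe measured it. The mean of its probes, which averages in signal at background, gave 1.90 and 2.17, and both still passed. Between the tumor groups the log2 fold change was -0.56 (adjusted p = 0.382).

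*Igf2*, the growth factor gene next to that cluster, was bright in all groups, with means of 12.66 ± 0.41, 12.38 ± 0.61 and 13.48 ± 0.14 (SD, n = 4 each), and was lower in *Ptch+/-* MBs than in GNPs (log2 fold change -1.10, limma adjusted p = 0.0305). *Igf2r*, the maternally read receptor that clears IGF2, was also lower there on its brightest probe (-1.59, adjusted p = 0.0321). A second *Igf2r* probe above background did not pass (-0.47, adjusted p = 0.609). In *Ptch+/-* MB replicates 1 to 4 *Igf2* was at 12.94, 12.32, 11.55 and 12.71. The choroid plexus sum there was 29719, 6449, 222 and 21205, in the same order. In *NdpKO;Ptch+/-* MBs *Igf2* was at 12.93, 13.02, 12.11 and 12.59 and the sum at 4050, 1029, 395 and 538. In GNPs *Igf2* was at 13.57, 13.31, 13.60 and 13.44 and the sum at 3904, 1186, 1456 and 564. *Igf2* and the sum ranked the replicates alike in *Ptch+/-* MBs. In *NdpKO;Ptch+/-* MBs only replicates 1 and 2 (*Igf2* at 12.93 and 13.02) changed places, and in GNPs the ranks differed. The part of these cells was not tested. The *Igf2* call was lost in 6 and the *Igf2r* call in 8 of 20 alternative fits (adjusted p at most 0.0735 and 0.136).

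**Figure D4:**
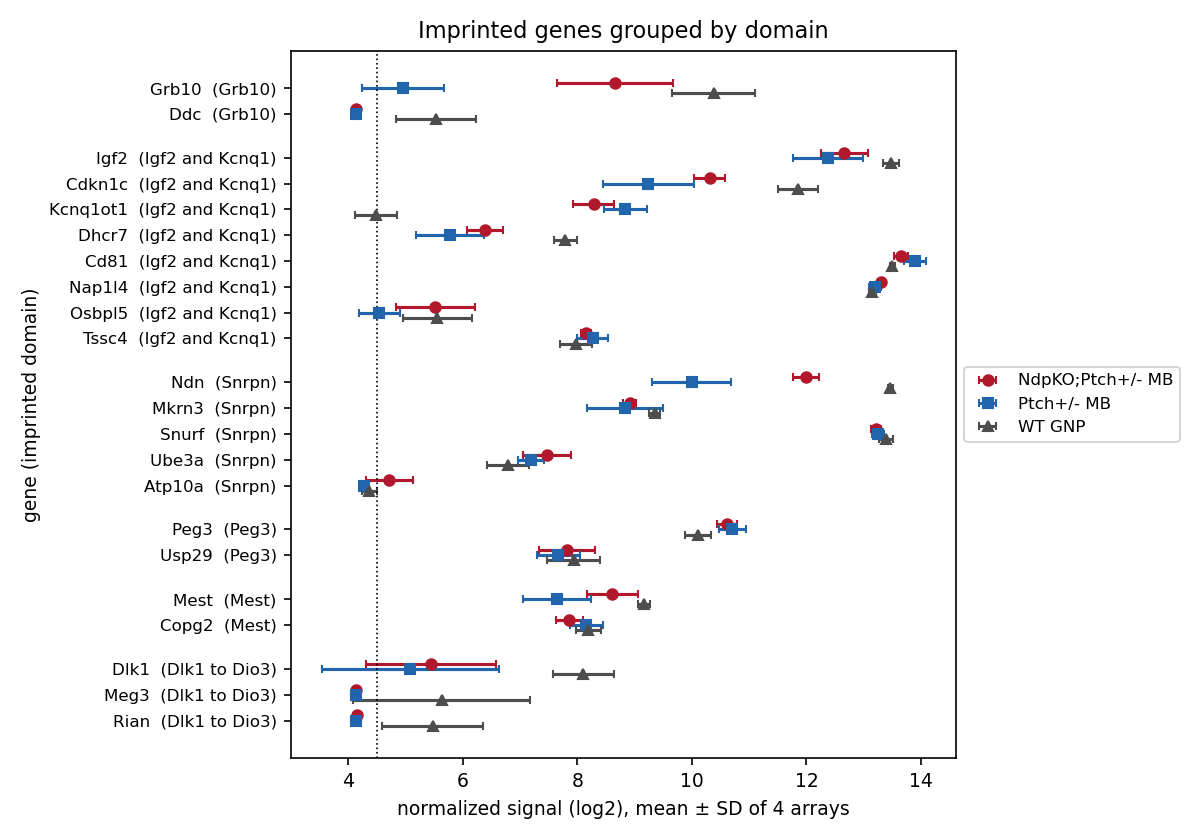
Mean and SD (4 arrays each) of the normalized log2 signal of 22 imprinted genes, grouped by imprinted domain, in NdpKO;Ptch+/- MBs (red circles), Ptch+/- MBs (blue squares) and WT GNPs (grey triangles); the dotted line is the background limit of 4.5, and levels of different genes are not comparable. Ndn separates the 3 groups while the brightest Snurf probe, in the same domain, stays between 13.10 and 13.53, and Kcnq1ot1 is higher in both tumor groups while Cdkn1c is lower.

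Beyond the 10 members, a list of 52 other imprinted genes had 47 with a probe and 26 above background. Between the tumor groups 0 were higher and 1 was lower in *NdpKO;Ptch+/-* MBs, beside 1.54% and 2.42% of all genes above background. That gene was *Ppp1r9a*, which encodes the actin-binding synaptic protein neurabin, with a log2 fold change of -0.72 (SE 0.10, limma adjusted p = 0.0127). Against GNPs it was higher by 0.54 on the log2 scale in *NdpKO;Ptch+/-* MBs (adjusted p = 0.00755, but 0.24 and adjusted p = 0.316 with the mean of its probes) and 2.40-fold in *Ptch+/-* MBs (adjusted p = 3.63e-05). Its signal was 10.68 to 11.21 in *NdpKO;Ptch+/-* MBs, 11.55 to 11.77 in *Ptch+/-* MBs and 10.33 to 10.55 in GNPs, so no groups overlapped. The call between the tumor groups was lost in the fit of the 8 tumor arrays alone (adjusted p = 0.0983), the highest of the 20 alternative fits.

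Against GNPs, 2 of the 26 were higher (*Kcnq1ot1* and *Ppp1r9a*) and 4 lower (*Ddc*, *Dhcr7*, *Peg13* and *Rian*) in *NdpKO;Ptch+/-* MBs. Over all genes above background, 14.4% were higher and 13.1% lower there. In *Ptch+/-* MBs 3 were higher (also *Cd81*) and 7 lower (also *Gnas*, *Igf2* and *Igf2r*), beside 18.6% and 18.0% of all genes. *Ddc* and *Rian* were above background only in GNPs and could only count as lower. *Igf2* and *Igf2r* lie outside the rule for named genes and were named after their values were seen, as was *Mkrn3*. *Dhcr7*, which encodes the last enzyme of cholesterol synthesis, fell by 2.01 on the log2 scale in *Ptch+/-* MBs (adjusted p = 9.57e-04) and by 1.40 in *NdpKO;Ptch+/-* MBs (adjusted p = 0.00917). *Rian*, a noncoding RNA of the *Dlk1* cluster, was at background in both tumor groups and at 4.51 to 6.64 in GNPs, at least 1.97-fold higher (adjusted p = 0.0347 and 0.0255 for *NdpKO;Ptch+/-* and *Ptch+/-* MBs). The calls of *Rian* and *Peg13*, a brain noncoding RNA, were each lost in 6 to 11 of 20 alternative fits (adjusted p at most 0.101). The median log2 fold change of the list was 0.03, -0.20 and -0.20 in the 3 comparisons.

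Of the annotated neighbours of *Grb10* on chromosome 11, *Ddc*, which encodes dopa decarboxylase, was at background in all 8 tumors and at 4.82, 6.22, 5.06 and 6.03 in GNPs. It was at least 2.05-fold higher in GNPs than in either tumor group (limma, adjusted p = 0.00917 against *NdpKO;Ptch+/-* and 0.00689 against *Ptch+/-* MBs). A second *Ddc* probe, also at background in all 8 tumors, was at 4.33 to 5.86 in GNPs and did not pass (adjusted p = 0.199 and 0.170). The 4 *NdpKO;Ptch+/-* MBs, with *Grb10* at 7.29 to 9.68, had *Ddc* at 4.13 to 4.15. *Cobl*, on the other side, was under the limit on all arrays.

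Because GRB10 acts at the insulin and IGF1 receptors, 22 genes of that step were counted, of which 20 had a probe and 17 were above background. Between the tumor groups 0 of 17 passed in either direction (limma, adjusted p under 0.05), beside 1.54% of all genes above background higher and 2.42% lower. At an unadjusted p under 0.05, 1 was higher and 4 were lower. The share of all genes at that unadjusted threshold was not counted, so these counts are not read as a result. Against GNPs, 1 of 17 was higher and 3 were lower in *NdpKO;Ptch+/-* MBs, beside 14.4% and 13.1% of all genes. In *Ptch+/-* MBs 3 were higher and 2 lower, beside 18.6% and 18.0%. The genes below are described singly and not as a change of the list. Against GNPs, *Mtor*, the growth kinase, was higher in both tumor groups by small amounts (log2 fold change 0.34, adjusted p = 0.00948, in *NdpKO;Ptch+/-* MBs and 0.28, adjusted p = 0.0208, in *Ptch+/-* MBs), but the mean of its probes turned the direction, to -0.80 and -0.63. *Grb14*, which encodes a related adaptor, was at background in both tumor groups and at 4.42 to 5.19 in GNPs, at least 1.24-fold higher (adjusted p = 0.0202 and 0.0141). In *NdpKO;Ptch+/-* MBs *Irs2*, the insulin receptor substrate, fell by 0.98 on the log2 scale (adjusted p = 0.0146) and *Pik3r1*, the regulatory subunit of PI3 kinase, by 0.59 (adjusted p = 0.00695). *Tsc1*, a brake on mTOR, was higher in *Ptch+/-* MBs by 0.95 (adjusted p = 0.0156), *Insr*, the insulin receptor, by 0.62 (adjusted p = 0.0371), and *Rheb*, an activator of mTOR, fell by 0.51 (adjusted p = 0.00219). The *Insr* call was lost in 11 of 20 alternative fits (adjusted p at most 0.0931), and the *Tsc1* call in 1, with the mean of its probes (0.18, adjusted p = 0.434). *Igf1r* passed in no comparison. The median log2 fold change of the list was -0.20, 0.16 and 0.23 in the 3 comparisons.

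Of 15 genes that keep or set imprints, 13 had a probe and 7 were above background. *Dnmt1*, the maintenance DNA methyltransferase, was higher in *Ptch+/-* MBs than in GNPs by 0.51 on the log2 scale (limma, adjusted p = 0.00927). That is 1 of 7 genes, where 18.6% of all genes above background were higher. None of the other 6 passed in any comparison. Between the tumor groups 0 of 7 passed, beside 1.54% of all genes higher and 2.42% lower. At an unadjusted p under 0.05, 0 were higher and 1 was lower, for which no share of all genes was counted. *Uhrf1*, which brings DNMT1 to replicating DNA, was at 12.35 to 13.09 on all arrays.

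The genes whose signal followed *Grb10* most closely over the 12 arrays were *Ift74* (Pearson r = 0.959), *Mfap4* (0.957), *Tceal8* (0.952), *Adh5* (0.947) and *Pdia3* (0.946). These values are descriptive, over 12 arrays in 3 groups whose means differ. *Mfap4*, an extracellular matrix glycoprotein, had the widest span of these, with means of 10.91 ± 0.39 in *NdpKO;Ptch+/-* MBs and 8.51 ± 0.55 in *Ptch+/-* MBs, against 12.84 ± 0.29 in GNPs (SD, n = 4 each). The means of the other 4 spanned less than 1 log2 unit. *Ift74* is a part of the transport machinery of cilia and *Pdia3* a protein disulfide isomerase of the endoplasmic reticulum.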

How the data were processed

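Per the labels and the study's methods, total RNA from dissected MBs and enriched GNPs was hybridised to Illumina MouseWG-6 v2.0 BeadChips, and the authors deposited normalized log2 signals made in limma (neqc), a step that uses negative controls to remove background, adds an offset and quantile normalizes the arrays. Differences in general level between arrays were thereby removed. The version of limma that the authors used is not given in the sources used here.

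Groups were taken from the GEO labels, which do not say whether each sample came from a separate animal; if not, the p-values measure only the spread between these samples. The deposited values were fitted in limma 3.58.1 (R 4.3.3) with lmFit and eBayes, as 1 group-means model over 12 arrays, with Benjamini-Hochberg adjustment of p across the 45281 probes and a threshold of 0.05. Probe names came from GEO's platform annotation, which gave 1 symbol to 34885 probes, several to 18 and none to 10378. A gene was represented by its brightest probe over the 12 arrays. Genes under 4.5 on every array of the dimmer group were given an "at least" fold against 4.5, and a fold where only some arrays lay under 4.5 is a fitted value. The fit was tested on simulated data. The plan tested *Grb10* in *Ptch+/-* MBs against GNPs; this test was dropped, since the *Ptch+/-* MBs took part in choosing the gene.

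The members, gene lists and background limit were chosen with earlier results of these data known. Named were all members with every probe above background. From the imprinted and insulin receptor lists, up to 4 genes per direction and comparison were named by smallest p. Both neighbours of *Grb10* and the 5 genes most correlated with it were also named. Other genes named were chosen after their values were seen. Promoter sequences were taken from RefSeq (GRCm38.p6) for 8 of the 10 members. The alternatives were cyclic loess, centring of arrays, a filter on dim probes, array weights, a robust prior with an intensity trend, only the groups compared, the replicate block, the mean of a gene's probes, an adjusted p under 0.01, and leaving out each array; those for genes other than members were added after the data were seen.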

Additional observations from a re-analysis of the deposited data

Results flagged for a closer look

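Among 33 pairs of gene and group checked for a sample far from the other 3 of its group, 3 were found, and chance alone flags about 1 in 20 groups. *Dlk1* was at 7.40 in *Ptch+/-* MB replicate 1 and at 4.21 to 4.51 in the other 3, a gap of 0.908 of the group's range. This was also the array with *Eif2s3y* at background and with the highest choroid plexus sum of all 12 arrays (29719). *Ptch+/-* MB replicate 4, with a sum of 21205, had *Dlk1* at 4.51. *Mest* was at 7.95 in *NdpKO;Ptch+/-* MB replicate 1 and at 8.77 to 8.91 in the others, a gap of 0.860 of the range. *Kcnq1ot1* was at 5.04 in 1 GNP sample and at 4.27 to 4.35 in the others, a gap of 0.903 of the range. No cause was tested.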

How the results depend on the processing

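Over 20 alternative fits, the 400 alternative fold changes of members kept their direction in every case (*Meg3* between the tumor groups, at background in both, was not counted), and 366 also kept their side of the threshold or stayed within the spread between arrays. In many of these fits the direction could not change. The filter on dim probes, the robust prior with an intensity trend, only the groups compared and the replicate block leave a brightest probe's fold change as it was. Leaving out an array of the group not compared does so too. Of the rest, 16 no longer passed, 15 newly passed, and 3 moved, all of *Grb10* with the mean of its 3 probes (1.25 between the tumor groups, and -0.62 in *NdpKO;Ptch+/-* and -1.87 in *Ptch+/-* MBs against GNPs), which averages in the 2 probes at background. The count of members called between the tumor groups was 1; it was 0 with only the 2 groups of the comparison, with the replicate block and at an adjusted p under 0.01, and 1 whichever array was left out. For *NdpKO;Ptch+/-* MBs against GNPs the count was 2; it was 4, with *Dlk1* and *Peg3* added, under centred arrays, after a filter on dim probes, with array weights, with a robust prior and intensity trend and with the mean of a gene's probes, 1 at an adjusted p under 0.01, and 1 to 3 when 1 array was left out. For *Ptch+/-* MBs against GNPs it was 5 without *Grb10*, and 3 to 5 when 1 array was left out. Over all probes, 624, 5614 and 7814 passed in the 3 comparisons, and 64 to 1606, 2893 to 14339 and 4187 to 9150 under the alternatives; centring the arrays moved the share of higher calls from 38.5% to 22.8% between the tumor groups and from 46.7% to 21.1% for *NdpKO;Ptch+/-* MBs against GNPs, but only from 38.3% to 41.1% and from 50.4% to 48.8% over probes above background. Same-numbered arrays deviated together little over all probes above background (correlations of -0.178 to 0.107), which cannot exclude a pairing of samples or one that acts on single genes. With the replicate block 223 probes passed between the tumor groups in place of 624. The SE of that difference was then 0.35 in place of 0.57 for *Grb10*, and 0.31 in place of 0.29 for *Ndn*. Of 27 calls of other named genes, 10 passed in every alternative, and *Mtor* reversed with the mean of its probes, to -0.80 in *NdpKO;Ptch+/-* and -0.63 in *Ptch+/-* MBs against GNPs. Where no cause is stated, the cause was not tested. Genes near background, among them *Dlk1*, *Meg3* and *Grb10* in *Ptch+/-* MBs, are limited by signal over background.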

Other observations

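*Rasgrf1*, a paternally read activator of Ras in the brain, was singled out after its values were seen. Its log2 signal was 4.20 to 5.52 in *NdpKO;Ptch+/-* MBs, 6.45 to 8.45 in *Ptch+/-* MBs and 5.81 to 7.34 in GNPs, and the tumor groups did not overlap. The difference between the tumor groups, a log2 fold change of -2.60 (SE 0.54), did not pass (limma, adjusted p = 0.0550). A second probe gave -1.97 (adjusted p = 0.201).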
